A study of Mus musculus with 9 samples.

Results

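The genes described here handle arginine and the polyamines made from it: Arg1, Arg2, Nos2, Odc1, Oat, Ass1, Asl, Srm, Sms and Sat1. They were measured on 9 Illumina bead arrays of activated hepatic stellate cells (HSCs), the scar-forming cells of the liver, all labelled as from male WT1GFP/+ mice of strain C57/Bl6. All 9 arrays came from mice that carry a GFP reporter at 1 WT1 allele, so GFP brightness stood for WT1, a transcription factor of the mesothelium that covers the liver. The WT1-high and WT1-intermediate groups (labelled GFP high and GFP low, 3 arrays each) were sorted from livers injured by repeated intraperitoneal carbon tetrachloride. The WT1-negative group (GFP negative, 3 arrays) came from quiescent HSCs activated on plastic for 7 days. The paper describes flow sorting by GFP for such cultures too. Below, sorted cells and sorted arrays mean only the WT1-high and WT1-intermediate groups from injured liver. Origin in liver or in culture therefore cannot be told apart from WT1 status in any comparison with the WT1-negative group. The 10 genes were chosen by name with their values on these same arrays already known, so their levels and differences, and whether the fit over all probes called them, are given as a description that supports nothing, with no p-value. Of the 10 genes, 9 had a probe of their own, by 14 of the 45281 gene probes. A probe was kept where its detection p-value was under 0.05 on at least 3 of the 9 arrays, which held for 20573 probes in all, for 11 of the 14 and for 7 of the 10 genes.

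Arginine stands at a branch point. Arginases split it into ornithine and urea, while nitric oxide synthases turn it into nitric oxide and citrulline, which argininosuccinate synthase and lyase turn back into arginine. Ornithine in turn feeds the polyamines putrescine, spermidine and spermine, which growing cells need, or is passed by ornithine aminotransferase towards glutamate and proline, the latter a major building block of collagen. In the liver the arginase of hepatocytes closes the urea cycle, and in macrophages arginase 1 is a widely used sign of alternative activation.

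The Arg1 probes are shown because they gave differences of unlike size against culture. Where each probe lies on the transcript was not determined, and its part in these values was not tested. These 2 probes of 50 bases share no run longer than 5 bases and so read different stretches of the transcript. The sequences are those of the deposited probe annotation, 5′ to 3′.
Arg1 probe 1: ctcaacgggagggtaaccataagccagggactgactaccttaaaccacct
Arg1 probe 2: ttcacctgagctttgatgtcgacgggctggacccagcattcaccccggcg

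Between 38.1% and 43.67% of the probes were detected on each array. Arrays of the same group correlated at 0.972 or higher over the kept probes (Pearson's r, across probes, which are not independent replicates). WT1-high correlated with WT1-intermediate arrays at 0.9467 to 0.9757, which overlaps the values within groups. Sorted arrays correlated with WT1-negative arrays at 0.7734 to 0.8437. The sorted cells carried the mesothelial markers Msln, at log2 levels of 11.61 (WT1-high) and 10.99 (WT1-intermediate), and Upk3b, at 12.71 and 11.91. The stellate cell markers Des and Col1a1 were detected on all arrays, but Lrat was detected on 1 array, and Rgs5 and Gfap on none.

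Arg1 set the members apart. It was the member with the largest difference in all 3 comparisons, lowest in WT1-high and highest in WT1-negative cells, while Arg2 and Oat were higher in the sorted cells than in culture, Asl was lower, and Nos2 and Sms were not detected. A gene was called where limma's moderated test of its reporting probe (the kept probe with the highest mean level) gave a Benjamini-Hochberg adjusted p under 0.05 over all kept probes. Between WT1-high and WT1-intermediate cells, 1 of the 7 tested members was called, lower in WT1-high, where limma called 3.55% of all probes, made up of 0.904% higher and 2.64% lower. Between WT1-high and WT1-negative cells, 4 of 7 were called, 2 higher and 2 lower, where 59.6% of all probes were called, made up of 26.5% higher and 33.1% lower. In WT1-intermediate set against WT1-negative cells, 5 of 7 were called (3 higher, 2 lower), where 58% of all probes were called, made up of 24.4% higher and 33.6% lower. The members were selected on these contrasts, so nothing is read from their counts. The median log2 difference of the tested members was −0.28, −0.49 and 0.20 in the 3 comparisons, beside 0.05, −0.10 and −0.13 for all probes. The direction of the calls over all probes moved with the scaling: of the calls between WT1-high and WT1-intermediate cells 25.5% were higher, against 95.5% with the arrays scaled to a common median and 39.3% with no background correction, and of those in WT1-intermediate against WT1-negative cells 42.1% were higher, against 23.1% with median scaling. Median scaling moved the median difference of all probes by 0.40 in the former comparison and by −0.30 in the latter.

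**Figure D1:**
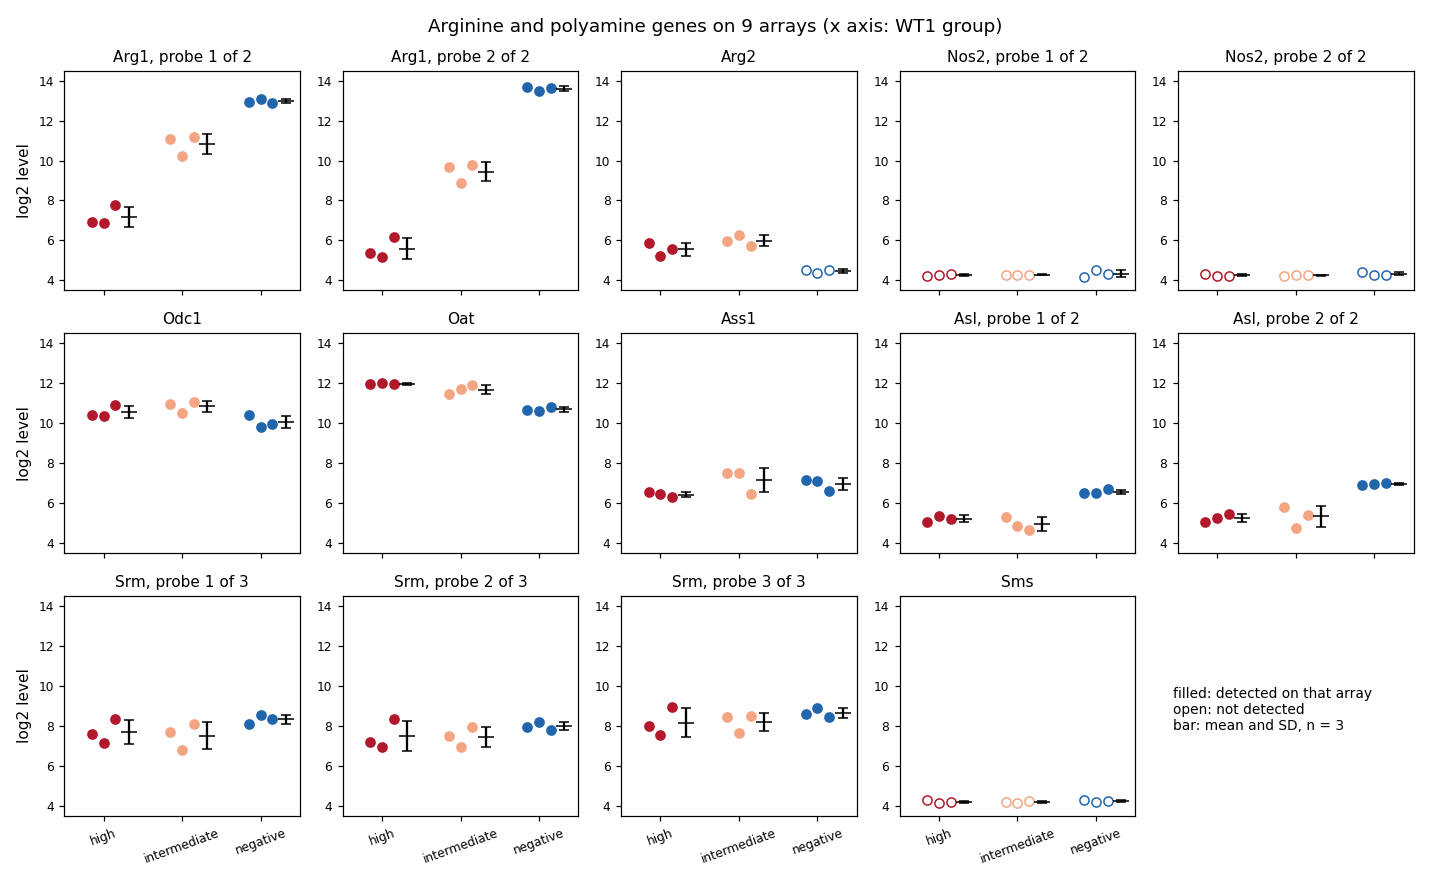
Log2 level of the 14 member probes on each of the 9 arrays, by WT1 group. Each point is 1 array, filled where the probe was detected there and open where it was not, and the bars give the mean and SD of the 3 arrays. Both Arg1 probes climb from WT1-high to WT1-negative without overlap between groups, while the Nos2 and Sms probes lie between 4.14 and 4.53 throughout.

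Arginase 1, the cytosolic enzyme, gave log2 levels at probe 1 of 6.92, 6.85 and 7.76 in WT1-high cells (replicates 1, 8 and 29). The WT1-intermediate arrays (replicates 1, 8 and 30) read 11.07, 10.25 and 11.16. The WT1-negative arrays (replicates 3, 11 and 14) read 12.92, 13.10 and 12.90. The groups did not overlap, and the smallest gap between arrays of neighbouring groups was 1.73. WT1-high cells lay below WT1-intermediate cells by a log2 difference of −3.65 (SE 0.28), or 12.6-fold. They lay below WT1-negative cells by −5.80, or 55.5-fold, and WT1-intermediate cells lay below WT1-negative cells by −2.15, or 4.42-fold. Over the alternative settings these differences ran from −3.95 to −3.03, from −6.06 to −5.12 and from −2.69 to −1.85, in that order. Between the sorted groups the difference was −3.03 with no background correction and −3.04 with median scaling. In bulk samples such as these, fewer cells of a type and less RNA per cell cannot be told apart.

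Arg1 probe 2, at a different stretch of the transcript, put the groups in the same order with wider steps. It read 5.36, 5.19 and 6.19 on the WT1-high arrays, 9.67, 8.88 and 9.78 on those of WT1-intermediate cells, and 13.70, 13.49 and 13.64 on those from culture. The log2 difference of WT1-high from WT1-intermediate cells was −3.86 (SE 0.28), close to that of probe 1. Against culture, for the WT1-high and then the WT1-intermediate group, the probes differed in size: probe 2 gave −8.03 in the former group and −4.17 in the latter. Within the 3 pairs of sorted cells, probe 1 differed by −4.15, −3.40 and −3.41 and probe 2 by −4.31, −3.69 and −3.59 (replicates 1 with 1, 8 with 8, and 29 with 30). The sorted groups did not overlap at either probe, so any pairing of these arrays would put all differences on the same side. The signs of the pairs therefore add nothing to the group difference.

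Marker transcripts of other cell types also differed between the groups, in different directions. The 20 macrophage markers summed to a linear level of 5628 to 8861 on the WT1-high, 18270 to 30100 on the WT1-intermediate and 57900 to 63670 on the WT1-negative arrays. That sum, in which bright markers weigh most, had the order of Arg1 between the groups. Within each sorted group the array with the lowest sum had the highest Arg1 level at probe 1. These were WT1-high replicate 29 (sum 5628, Arg1 7.76) and WT1-intermediate replicate 30 (sum 18270, Arg1 11.16). Among the WT1-negative arrays, replicate 11 had both the highest sum (63670) and the highest Arg1 (13.10). Gene by gene, WT1-intermediate cells had 9 markers above and 11 below WT1-negative cells. Of these, limma called 6 higher and 7 lower, with a median difference of −0.35. Between the sorted groups all 20 had lower levels in WT1-high cells and limma called 14, with a median difference of −1.70. The count ranged from 6 with no filter and 7 with median scaling to 18 with the random and 19 with the fixed replicate block, with none called higher in any of these. Cd68, a lysosomal protein of macrophages, was at 7.80, 9.91 and 12.67 in the 3 groups, again in the order of Arg1. Adgre1, a macrophage surface receptor, was at 7.81, 9.95 and 9.61, and Csf1r, the receptor for macrophage growth factor, at 7.98, 9.39 and 9.09. For these 2 genes WT1-intermediate and WT1-negative cells differed by 0.34 and 0.31 (limma adjusted p = 0.29 and 0.42), each below 0 in 1 of 19 alternatives, and the Csf1r difference was 0.74 and called without WT1-intermediate replicate 30. All 3 defining macrophage markers were detected on all 9 arrays. The part of macrophage RNA in the Arg1 values was not tested.

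Within the macrophage genes, all 9 tested markers of alternative activation had lower levels in the WT1-high than in the WT1-intermediate group, 3 of them called, while against culture their directions differed. Mrc1, the mannose receptor, differed by −5.69 between WT1-high and WT1-negative cells (limma adjusted p = 7.8e-10) and by −1.09 between the sorted groups, where median scaling gave −0.42 and no call. Chil3, a secreted chitinase-like protein, went the other way against culture and was higher by 4.91 in WT1-high cells (limma adjusted p = 1.8e-05) and by 5.84 in WT1-intermediate cells, with 1 of 3 WT1-negative arrays detected. Retnla was not detected in WT1-high cells and, set against that bound, WT1-intermediate cells held at least 1.71-fold more (limma adjusted p = 0.029), a call that 11 of 19 alternatives lost. Of 9 tested genes of classical activation, limma called 6 higher and 3 lower in WT1-high than in WT1-negative cells. Among the 6, Il6 was higher by 3.47 and Il1b by 2.64. Between the sorted groups, 7 of these 9 genes had lower levels in WT1-high cells, with 1 called and a median difference of −0.79. The neutrophil list gave sums of 1157 to 2382, 1855 to 2955 and 424.7 to 737.9 in the 3 groups.

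Hepatocytes are a further source of arginase. The summed level of their 9 tested markers was lowest where Arg1 was highest. It was 482.6 to 2390 in WT1-high, 589.7 to 1671 in WT1-intermediate and 197.3 to 345 in WT1-negative cells. Between the sorted groups limma called 0 of the 9, and 2 had an unadjusted p under 0.05. With the sorted arrays paired it called 3 higher in WT1-high cells (Fga, Cyp2e1 and Serpina1a) as a fixed replicate block and 1 (Apob) as a random one, and without WT1-high replicate 1 it called 2 (Cyp2e1 and Apob). These 4 genes are named as those behind the counts, after their values were seen. Against culture, 6 of the 9 were called higher and 0 lower in WT1-high cells. In WT1-intermediate cells 5 were called higher and 1 lower. Of the defining hepatocyte markers, Alb was not detected on any array and Cps1 by either probe on at most 2 of 9. Mesothelial markers also ran against Arg1, at 28800 to 35230, 17220 to 24520 and 180.9 to 224.9.

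**Figure D2:**
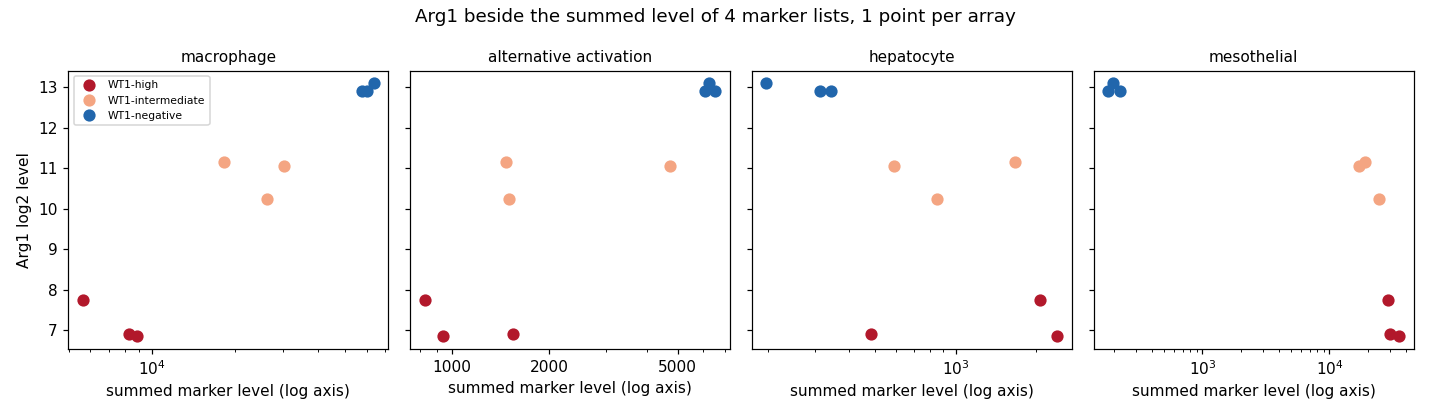
Log2 level of Arg1 (probe 1) against the summed linear level of the macrophage, alternative activation, hepatocyte and mesothelial markers on a log axis, 1 point per array. Arg1 and the macrophage sum are lowest on the WT1-high and highest on the WT1-negative arrays, while the hepatocyte and mesothelial sums are lowest on the WT1-negative arrays.

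Arginase 2, the mitochondrial enzyme, followed another order. Its probe read 5.89, 5.24 and 5.57 on the WT1-high arrays, 5.97, 6.26 and 5.73 on those of WT1-intermediate cells, and 4.52, 4.35 and 4.50 on those from culture. It was detected on all 6 sorted arrays and on none of the WT1-negative arrays, and the WT1-high and WT1-intermediate arrays overlapped. Because the WT1-negative level is only a bound, Arg2 is given as at least 1.95-fold higher on the WT1-high and at least 2.61-fold on the WT1-intermediate arrays (the bound sets the mean of the brighter group against the dimmest probe detected on each WT1-negative array, or the Arg2 signal where that was higher). The log2 differences from culture were 1.11 and 1.53, and 0.32 and 0.48 with no background correction. Between the sorted groups the log2 difference was −0.42 (SE 0.19), was not called, and was 0.01 under median scaling.

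Nos2, the inducible nitric oxide synthase that competes with the arginases for arginine in activated macrophages, was not detected on any array by either probe. Its levels lay between 4.19 and 4.53 at probe 1 and between 4.23 and 4.41 at probe 2. A difference between groups was not detectable at this signal.

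The pair of enzymes that rebuild arginine from citrulline had different patterns. Ass1, argininosuccinate synthase, read 6.53, 6.44 and 6.29 on the WT1-high arrays, 7.52, 7.52 and 6.45 on those of WT1-intermediate cells, and 7.17, 7.09 and 6.62 on those from culture. WT1-intermediate replicate 30 stood about 1 log2 unit below the other arrays of its group and inside the WT1-high range. The Ass1 differences of −0.74 (WT1-high minus WT1-intermediate, SE 0.27), −0.54 (WT1-high minus WT1-negative) and 0.20 (WT1-intermediate minus WT1-negative) were not called. Without that array they were −1.11, −0.55 and 0.56, and all 3 were called. The difference from WT1-negative cells in WT1-high was also called where only these groups were fitted, and median scaling turned the last value to −0.39. The macrophage markers summed to 18270 on that array, beside 30100 and 26100 on the other WT1-intermediate arrays; their part in the Ass1 value was not tested.

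Asl, argininosuccinate lyase, was the member besides Arg1 that was lower in the sorted cells than in culture and was called. Probe 2 read 5.06, 5.24 and 5.47 on the WT1-high arrays, 5.82, 4.77 and 5.41 on those of WT1-intermediate cells, and 6.93, 6.93 and 7.02 on those from culture. The WT1-negative arrays lay above all 6 sorted arrays, which overlapped with each other. The log2 difference from WT1-negative cells was −1.70 for WT1-high (SE 0.23), or 3.26-fold, and −1.63 for WT1-intermediate cells, or 3.09-fold. Probe 1 gave −1.35 and −1.62 and is not counted as a further measurement. Between the sorted groups the 2 probes differed in sign, at 0.26 for probe 1 and −0.08 for probe 2, and neither was called. With no background correction the probe 2 differences from culture shrank to −0.75 and −0.72 and were still called. Cell cycle genes lay on the same side: Mki67, a mark of dividing cells, stood at 5.15, 4.96 and 7.97 in the 3 groups, and all 8 tested cell cycle genes were called lower in both sorted groups. The part of dividing cells in the Asl values was not tested.

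Of the enzymes that draw on ornithine, Oat, the mitochondrial aminotransferase that leads towards proline and glutamate, was higher in the sorted cells. It read 11.95, 12.00 and 11.94 on the WT1-high arrays, 11.46, 11.70 and 11.89 on those of WT1-intermediate cells, and 10.66, 10.61 and 10.81 on those from culture. The sorted arrays all lay above the WT1-negative arrays, and the WT1-high arrays lay above the WT1-intermediate arrays by a gap of 0.05. Above culture, Oat was higher by 1.27 (SE 0.15), or 2.41-fold, on the WT1-high arrays and by 0.99, or 1.99-fold, on the WT1-intermediate arrays. The difference of 0.28 between the sorted groups was not called. Median scaling changed both of these smaller readings: the difference of WT1-intermediate from WT1-negative cells became 0.40 and was no longer called, and that between the sorted groups became 0.88 and was called.

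Odc1, ornithine decarboxylase, makes putrescine and opens polyamine synthesis. It read 10.43, 10.35 and 10.89 on the WT1-high arrays, 10.95, 10.51 and 11.06 on those of WT1-intermediate cells, and 10.39, 9.80 and 9.95 on those from culture. The WT1-intermediate arrays lay above the WT1-negative arrays by a gap of 0.11, and the WT1-high arrays overlapped with both. The log2 difference was 0.79 (SE 0.22) between WT1-intermediate and WT1-negative cells, which was called, and 0.51 between WT1-high and WT1-negative cells, which was not. With median scaling the former was 0.13 and not called, and the difference between the sorted groups went from −0.28 to 0.37, called in neither. The difference of WT1-high from WT1-negative cells was called with array weights, without WT1-intermediate replicate 8 (0.51) and without WT1-negative replicate 3 (0.69). A probe for a transcript described as similar to ornithine decarboxylase, LOC677259, ends in the 9 bases that start the Odc1 probe. The LOC677259 probe was not detected on any array, while the Odc1 probe was detected on all 9. Whether both probes read the same transcript was not tested.

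Srm, spermidine synthase, was read by 3 probes, and none was called in any comparison. The brightest read 8.00, 7.52 and 8.95 on the WT1-high arrays, 8.42, 7.65 and 8.49 on those of WT1-intermediate cells, and 8.57, 8.91 and 8.45 on those from culture. All 3 groups overlapped at this probe, and the SD was 0.73 in WT1-high against 0.24 in WT1-negative cells. WT1-high replicate 29 was the highest of its group at all 3 Srm probes. The difference of WT1-high from WT1-negative cells was −0.49 (SE 0.33), and without that array it was −0.88 and called. That of WT1-intermediate from WT1-negative cells was −0.46, and −1.20 and called with median scaling. The other probes gave −0.63 and −0.49 for WT1-high minus WT1-negative cells.

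Sms, spermine synthase, was not detected on any array, with levels between 4.14 and 4.26. Sat1, the acetyltransferase that starts polyamine breakdown, had no probe under its own symbol. The single match to its name among older names belonged to Slc26a1, a sulfate transporter of another gene ID, and was left out. A probe for a transcript described as similar to this acetyltransferase, LOC100047261, was detected on all 9 arrays at a mean log2 level of 11.64, 11.79 and 11.71 in WT1-high, WT1-intermediate and WT1-negative cells, with SDs of 0.20, 0.11 and 0.22. Whether it reads Sat1 was not tested.

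**Figure D3:**
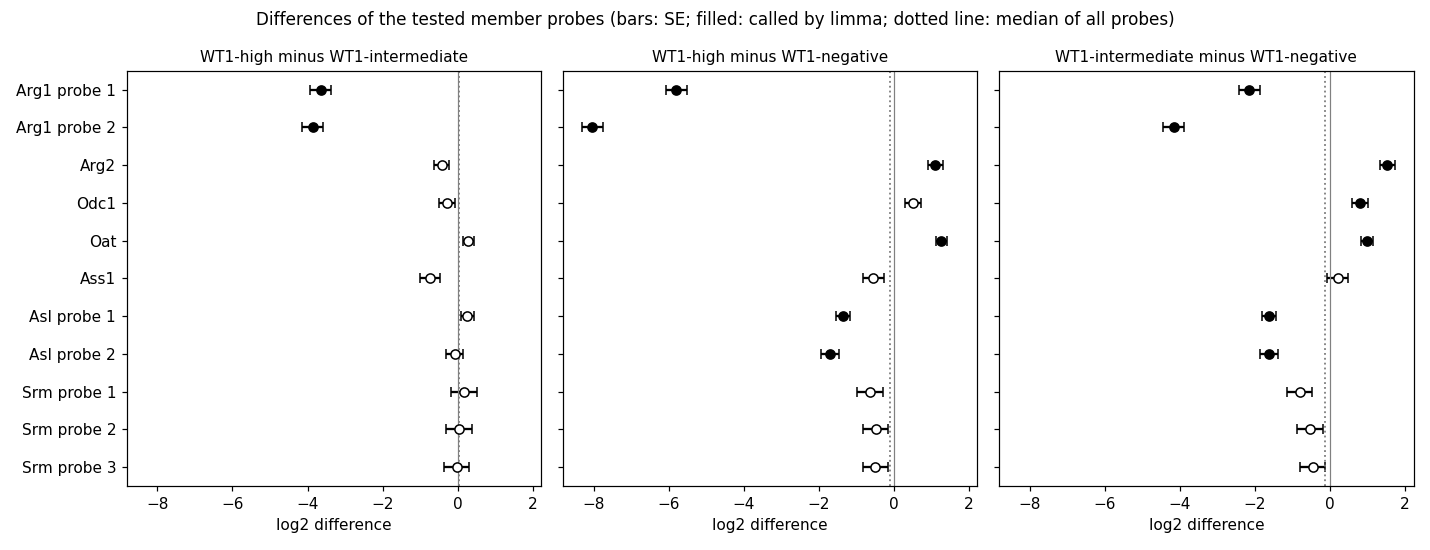
Log2 difference of the 11 tested member probes in the 3 comparisons, with the SE of the linear model. Filled points were called by limma, open points were not, and the dotted line is the median of all kept probes. Arg1 stands at −3.65 and −3.86 between the sorted groups, where the other members lie between −0.74 and 0.28.

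Around the members, 84 further genes of arginine transport, the urea cycle, nitric oxide, polyamines, hypusine, proline and glutamate, creatine and methylation, and known regulators were listed. Of these, 81 had a probe and 71 were tested. The early urea cycle genes Cps1, Otc and Nags were not tested, since none of their probes was detected on 3 arrays. Between WT1-high and WT1-intermediate cells, limma called 5 of the 71, all lower in WT1-high. Over all probes it called 3.55% in this comparison, 0.904% higher and 2.64% lower, so nothing is read from this count or its direction. The median difference was 0.04 over the 71 genes, beside 0.05 for all probes. With the in vivo pairs as a random replicate block 8 were called, and with median scaling 13, all of them higher. Leaving out single arrays lowered the count of 5 to 1 (WT1-high replicate 8), to 2 (WT1-high replicates 1 and 29, WT1-negative replicate 14) or to 3 (WT1-intermediate replicates 1 and 8, WT1-negative replicate 3).

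The gene with the largest difference of the 5 was Pparg, a nuclear receptor of lipid-handling cells that also supports alternative macrophage activation. It read 5.44, 5.38 and 5.06 in WT1-high and 8.25, 6.57 and 6.23 in WT1-intermediate cells, where replicate 1 stood highest. The difference was −1.72 (SE 0.40, limma adjusted p = 0.041), and 12 of 20 alternatives lost the call. Ifngr2, a subunit of the interferon gamma receptor, differed by −1.46 (limma adjusted p = 0.0086), with its WT1-high arrays at 7.94, 7.15 and 7.20 and its WT1-intermediate arrays at 9.32, 8.55 and 8.80. That call was lost in 2 of 20 alternatives, with median scaling (−0.76) and with no filter. The groups did not overlap for either gene.

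The other 3 genes act on arginine and its products. Smox, spermine oxidase, differed by −0.86 (SE 0.17, limma adjusted p = 0.019) between 7.27, 7.06 and 7.14 in WT1-high and 8.32, 7.90 and 7.81 in WT1-intermediate cells. Slc7a2, a carrier that brings arginine into cells, differed by −0.82 (SE 0.19, limma adjusted p = 0.036). Ckb, a creatine kinase, differed by −0.80 (SE 0.17, limma adjusted p = 0.03). Of 20 alternatives, 6 lost the Smox call, 13 the Slc7a2 call and 8 the Ckb call, and all 5 genes kept the sign in each alternative.

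Against WT1-negative cells, limma called 46 of the 71 genes in WT1-high cells, 18 higher and 28 lower, and 47 in WT1-intermediate cells, 16 higher and 31 lower. Over all probes 59.6% and 58% were called in these comparisons, so nothing particular is read from these counts or from those by list. The median difference was −0.10 and −0.14, beside −0.10 and −0.13 for all probes. These comparisons share the WT1-negative arrays, so their values are not independent of each other.

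Among the arginine carriers, 7 of 10 tested were called in each comparison, 2 higher and 5 lower. Slc3a2, the heavy chain that amino acid exchangers pair with, was higher by 2.17 in WT1-high cells (limma adjusted p = 0.00011) and by 1.73 in WT1-intermediate cells. Slc7a7, 1 of its light-chain partners for cationic amino acids, was lower by −1.86 and −1.41. Atp13a2, a lysosomal polyamine exporter, was lower by −2.31 in WT1-high (limma adjusted p = 9.3e-06) and −1.44 in WT1-intermediate cells. Slc7a3, another arginine carrier, was detected on 1 WT1-high array, where the group difference was −1.43, and on no WT1-intermediate array, where it was at least 2.60-fold lower.

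Of the nitric oxide genes, 7 of 11 were called in WT1-high and 8 of 11 in WT1-intermediate cells, 3 of them higher in each. Gch1, which makes the cofactor of nitric oxide synthases, was higher by 2.27 (limma adjusted p = 4.1e-05) and 1.95. The enzymes that clear methylated arginine, natural inhibitors of these synthases, split: Ddah2 was higher by 2.08 and 1.89, and Ddah1 lower by −1.28 and −1.13. The latter was not called with no filter, without WT1-intermediate replicate 1 (−0.85) or without WT1-negative replicate 11 (−0.84). Nos3, the endothelial synthase, was lower by −1.20 and −0.62, the latter losing its call in 5 of 19 alternatives, WT1-intermediate replicates 1 and 30 and WT1-negative replicate 3 among the arrays left out. The 9 endothelial markers summed to 1120 to 1492 on the WT1-high, 1836 to 2324 on the WT1-intermediate and 761.3 to 995.6 on the WT1-negative arrays, with 2 called higher and 3 lower in WT1-high and 4 higher and 3 lower in WT1-intermediate cells. Among them Pecam1 was lower by −1.44 and −0.92. The part of endothelial RNA in the Nos3 value was not tested.

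Of the 8 polyamine genes tested, limma called 4 lower in each comparison and 1 higher, in WT1-high cells. Those called lower follow, with the difference in WT1-high cells first. Paox, the peroxisomal polyamine oxidase, differed by −2.16 (limma adjusted p = 7.6e-06) and −1.64, and Smox by −1.71 and −0.85. Sat2, a relative of the acetyltransferase Sat1, differed by −1.36 and −1.73, and Mtap, which recycles the by-product of polyamine synthesis, by −1.16 and −1.36. The gene called higher was Oaz2, an antizyme that restrains ornithine decarboxylase, at 0.57 (limma adjusted p = 0.013), a call lost with median scaling and without WT1-high replicate 1. Both tested hypusine genes were lower: Dhps, which uses spermidine to modify eIF5A, by −1.17 and −1.13, and Eif5a itself by −0.63 and −0.81.

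On the proline and glutamate arm, 8 and 7 of 11 genes were called. Pycr1, which makes proline, was lower by −1.10 and −1.11, and P4ha2, a collagen prolyl hydroxylase, by −1.04 and −0.98. Glul, glutamine synthetase, was detected on all 6 sorted arrays and on no WT1-negative array, with a bound of at least 1.65-fold for the WT1-high and at least 2.19-fold for the WT1-intermediate group, higher in both. In the creatine and methylation list, 5 and 7 of 9 were called. Gamt, the last enzyme of creatine synthesis, was lower by −1.60 and −1.64, and Prmt6, an arginine methyltransferase, by −1.45 and −1.43.

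The regulators were the list with more genes higher than lower, 8 against 4 of 20 in WT1-high and 9 against 3 in WT1-intermediate cells, where median scaling turned it to 3 against 5. Klf4, a transcription factor, was higher by 4.24 (limma adjusted p = 8.9e-09) and 4.21. Mxi1, a partner of Max that opposes Myc, was higher by 2.31 and 2.46. Irf1, an interferon response factor, was higher by 1.56 and 1.43. Pparg was lower by −1.95 in WT1-high cells (limma adjusted p = 0.0015), and its difference of −0.23 in WT1-intermediate cells was not called.

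**Figure D4:**
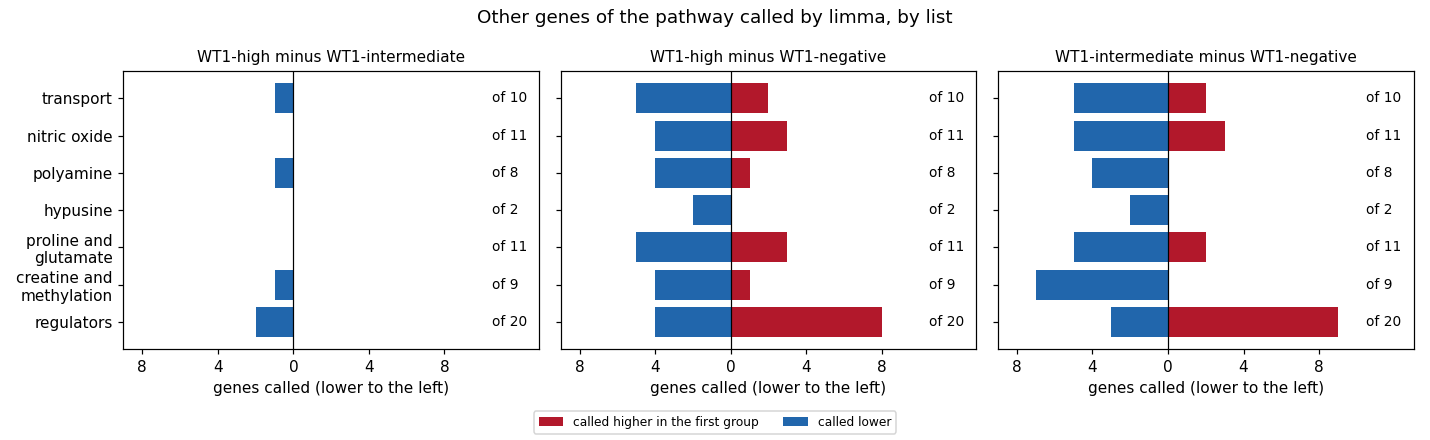
Number of genes of each pathway list that limma called higher (to the right) or lower (to the left) in the first group of each comparison, with the number tested at the right edge. Between the sorted groups 5 genes were called, all lower, where 2.64% of all probes were called lower and 0.904% higher. Against culture, lower calls outnumber higher ones in each list shown but the regulators. Median scaling turned the 5 calls to 13 higher ones and the regulators of the last comparison to 3 higher and 5 lower.

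The genes whose level over the 9 arrays was most like that of Arg1, by Pearson's r among 14652 genes, were Anpep (0.993), Gpnmb (0.988) and Folr2 (0.986). Gpnmb stood at 9.12, 11.63 and 13.10 in WT1-high, WT1-intermediate and WT1-negative cells, and Folr2, a folate receptor of tissue macrophages, at 5.12, 7.36 and 9.12. For Oat they were Rela (0.997), Isl1 (0.997) and Parva (0.997), and for Asl Dus1l (0.988), Nup43 (0.987) and Golga7 (0.984). The likeness rests on 3 groups of 3 arrays and is a description. For Ass1 they were 4930518I15Rik (0.974), Gngt2 (0.940) and 9430065L19Rik (0.929).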

How the data were processed

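Illumina MouseWG-6 v2.0 arrays were read from the deposited probe tables, where the authors exported the intensity of each probe without normalisation, with its detection p-value. The study's methods give background correction by negative controls, quantile normalisation, log2 values and limma. The same steps were run here over all 9 arrays with neqc of limma 3.58.1 in R 4.3.3 (936 negative and 38 other control probes, offset 16). One linear model with 3 groups was fitted to 20573 probes, and limma's moderated p-values were adjusted by Benjamini-Hochberg over all of them. A gene was represented by its kept probe with the highest mean. Members and lists were chosen with earlier results of these data known. Text names all members, up to 4 called genes with the largest difference per list and comparison, defining markers and the 3 nearest genes; Oaz2 was named as the single called-higher polyamine gene after its value was seen. Replicate numbers pair the sorted arrays: deviations from group means correlated at 0.35, 0.34 and 0.47 for pairs 1 with 1, 8 with 8 and 29 with 30. A table column reads 29 where the sample title reads 30; its values match that sample in the joined table exactly. The study's methods describe replicates as separate animals in vivo and separate cell isolations in vitro. The number of arrays limits precision. Scripts were tested on simulated data. Alternatives covered background correction, offset, scaling, filter, samples in the fit, replicate block, array weights, a minimum difference and leaving out each array. The sequences of the Asl probes are not reported here.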

Additional observations from a re-analysis of the deposited data

How the results depend on the processing

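Of 333 recomputed member differences, 308 stayed within the SD of their arrays, 25 moved beyond it, and 0 called differences changed sign. Counts between the sorted groups depended most on the processing. The 730 probes called became 473 with no background correction, 2684 with median scaling, 335 with no filter, 339 with these groups alone in the fit, 358 with them normalised and fitted alone, 1520 with the fixed replicate block, 1796 with the random replicate block, 445 with a log2 difference of at least 1 required, and 330 to 868 without 1 array (330 and 371 for WT1-high replicates 8 and 29, 333 for WT1-intermediate replicate 1, 454 for WT1-negative replicate 14). The 5 pathway genes became 3 with no background correction, 3 with an offset of 50, 13 with median scaling, 1 with no filter, 2 with the groups alone in the fit, 2 normalised and fitted alone, 8 with the random replicate block, 2 with a difference of at least 1, and 1 to 4 without 1 array. The 1 member called became 2 with median scaling and 1 to 2 without 1 array; no block changed it, and the random block moved no count against WT1-negative cells by over 1.5 times. Against WT1-negative cells, probes called went from 12258 to 7970 (WT1-high) and from 11935 to 7716 (WT1-intermediate) with detection on all 9 arrays, where fewer probes were tested, and to 6073 and 5687 with a difference of at least 1. That last requirement also took the pathway genes from 46 to 29 and from 47 to 23, and the members of WT1-intermediate minus WT1-negative from 5 to 3. Beyond what the construction shows, the cause was not tested. Low signal limits Nos2, Sms and Arg2 in culture.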
